A study of Mus musculus with 5 samples.

Results

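Kmt2a, the histone methyltransferase known as MLL1, and 9 genes whose products tether it to chromatin, complete its core or help it to keep Hoxa genes transcribed were examined in myeloid progenitors that lacked intact Bcor. The 10 genes (Kmt2a, Men1, Psip1, Wdr5, Dot1l, Mllt1, Mllt3, Mllt10, Aff1 and Aff4) were chosen by symbol for their function. They are 10 of the 52550 genes counted, and all 10 passed the filter on low counts, which left 11766 genes. In BcorΔE9-10 cells Psip1 rose, with a fitted log2 difference of 0.72 ± 0.201 (SE; limma adjusted p = 0.0317). It was the only gene of the 10 to pass the threshold of 0.05 in either direction, against 10.1% of all genes tested. That call was lost once the trend with GC content of transcript ends was removed (0.44, limma adjusted p = 0.180). Kmt2a itself lay just outside it, at 0.71 (SE 0.223, limma adjusted p = 0.0528).

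The cells were Lin-cKit+Sca1- (KL) bone marrow cells, a sorted population that holds the committed myeloid progenitors, and were profiled by Quant-seq, which reads the 3′ end of each polyadenylated transcript. Both groups carried the tamoxifen-inducible scl-Cre-ERT transgene and were hemizygous for the X-linked Bcor gene, with the genotype Bcorfl/y in the 3 BcorΔE9-10 libraries and Bcorwt/y in the 2 BcorWT libraries. All mice received 1 mg of tamoxifen by intraperitoneal injection on each of 5 days, when 3 to 6 months old, and per the methods of the study the marrow of male mice was taken 20 weeks later. Recombination removes exons 9 and 10 of the floxed allele and shifts the reading frame, so the allele encodes a truncated protein. The Cre is driven by the stem cell enhancer of Scl, so progenitors carry the deletion through descent from cells in which Cre was active. No label states that each library came from a separate mouse, and the p-values measure the spread between these libraries.

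Kmt2a methylates lysine 4 of histone H3 at active promoters, and binds DNA rich in unmethylated CG dinucleotides through a CXXC domain. Menin (Men1) and LEDGF (Psip1) bind its amino-terminal part and hold it at chromatin, while Wdr5 belongs to the core that all enzymes of this family share. Dot1l methylates lysine 79 of histone H3 with its cofactor AF10 (Mllt10), the YEATS proteins ENL (Mllt1) and AF9 (Mllt3) read acylated histones, and AF4 (Aff1) and AFF4 (Aff4) are scaffolds of elongation complexes. In haematopoietic stem cells and in leukaemia with MLL fusions these proteins are known for sustaining Hoxa9 and Meis1, and AF9 can also bind BCOR.

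The promoters of Kmt2a, Aff1 and Men1 are given here as examples from the 10 genes, because CG dinucleotides are what the CXXC domain reads. Among the windows listed for the 10 genes, that of Dot1l held the most CG (44) and that of Men1 the fewest (10). Each sequence is the 250 bases before a start of transcription (RefSeq, GRCm38.p6, which is the mm10 build), written 5′ to 3′ on the strand of the gene, with every CG in capitals. Where RefSeq gave several starts, the window with the most CG is printed.
Kmt2a (chr9:44881290-44881539, minus strand): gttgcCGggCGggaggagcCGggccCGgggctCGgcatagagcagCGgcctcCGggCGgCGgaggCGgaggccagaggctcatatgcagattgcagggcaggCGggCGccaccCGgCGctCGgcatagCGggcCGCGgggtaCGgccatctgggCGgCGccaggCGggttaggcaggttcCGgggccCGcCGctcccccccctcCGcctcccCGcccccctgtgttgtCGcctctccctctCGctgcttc
Aff1 (chr5:103753912-103754161, plus strand): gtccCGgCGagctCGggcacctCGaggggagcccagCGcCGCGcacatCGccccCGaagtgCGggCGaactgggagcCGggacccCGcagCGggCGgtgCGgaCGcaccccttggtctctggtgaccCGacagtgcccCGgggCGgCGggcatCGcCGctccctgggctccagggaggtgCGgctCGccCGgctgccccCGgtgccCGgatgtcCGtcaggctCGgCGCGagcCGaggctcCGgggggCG
Men1 (chr19:6334763-6335012, plus strand): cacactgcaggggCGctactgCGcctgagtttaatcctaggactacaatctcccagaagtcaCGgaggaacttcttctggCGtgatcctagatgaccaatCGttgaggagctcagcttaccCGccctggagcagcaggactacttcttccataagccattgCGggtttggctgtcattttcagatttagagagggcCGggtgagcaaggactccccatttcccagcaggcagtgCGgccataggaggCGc

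The Kmt2a window held 29 CG dinucleotides and the Aff1 window 35, while the Men1 window held 10. Over the 32851 windows of the same length the median was 6, and 6.8%, 3.0% and 37.8% of them held at least as many CG as Kmt2a, Aff1 and Men1. A CG reads the same on both strands and was counted once. Of the other genes, Wdr5, Mllt10 and Aff4, whose levels were higher in BcorΔE9-10 with no overlap, held 12, 36 and 34 CG. Dot1l, Mllt1 and Mllt3, whose groups overlapped, held 44, 37 and 23, and no window was listed for Psip1. These counts describe the sequence, and no relation to the expression values was tested.

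Total counts ranged from 5998924 to 8303999 per library, and libraries of 1 group differed from each other by more than sampling noise. Over all 11766 genes tested, 10.1% passed the limma threshold, 6.02% higher and 4.09% lower in BcorΔE9-10, and 25.3% had an unadjusted p-value under 0.05. Of the genes called, 59.6% were higher with TMM scaling and 86% with scaling by total counts alone, which moved the median of all log2 fold changes from 0.0043 to 0.15. Bcor itself was counted at 21.6 to 27.4 CPM (scaled counts per 1e+06) in BcorΔE9-10 and 11.8 and 16.2 CPM in BcorWT (log2 fold change 0.78, SE 0.218, limma adjusted p = 0.0313). Reads at the 3′ end lie outside the removed exons and do not check the deletion. Of the markers by which the cells were sorted, Kit was present in every library (128 to 452 counts), while Ly6a, which encodes Sca1, had 3 to 8 counts per library.

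Kmt2a (chromosome 9, 44803355 to 44881296, minus strand) was counted at 18.2, 16.6 and 17.4 CPM in the BcorΔE9-10 libraries and 10.1 and 11.3 CPM in the BcorWT libraries, from 154, 102, 149, 71 and 76 counts. All 3 BcorΔE9-10 values lay above both BcorWT values, and the ranges within a group were small beside the gap between groups. The BcorΔE9-10 mean was 17.4 ± 0.779 CPM (SD, n = 3) and the BcorWT mean 10.7 ± 0.834 CPM (SD, n = 2), and the fitted difference of 0.71 on the log2 scale had a 95% interval from 0.24 to 1.18. The limma adjusted p of 0.0528 fell under the threshold in 4 of 10 other settings, the edgeR quasi-likelihood test among them (adjusted p = 0.0426), and in none of the 5 fits that left out a library. A 95% Poisson interval for the BcorWT values, which covers counting error only, ran from 7.87 to 12.7 CPM and from 8.87 to 14.1 CPM.

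Psip1 (chromosome 4, 83455680 to 83486459, minus strand), the gene of the chromatin tether LEDGF, was counted at 29.0, 33.1 and 32.1 CPM in BcorΔE9-10 and at 15.5 and 23.4 CPM in BcorWT. The groups did not overlap, and the BcorΔE9-10 libraries lay close together while the BcorWT libraries differed by 0.59 on the log2 scale. The BcorWT mean was 19.5 ± 5.61 CPM (SD, n = 2) and the BcorΔE9-10 mean 31.4 ± 2.18 CPM (SD, n = 3), and the rise of 0.72 on the log2 scale had a 95% interval from 0.29 to 1.14. The call was lost without BcorWT library 1 (log2 fold change 0.41, limma adjusted p = 0.348), without BcorΔE9-10 library 2 (0.68, 0.0813) and without BcorΔE9-10 library 3 (0.68, 0.0940). It was also lost with the GC trend removed (0.44, limma adjusted p = 0.180), and with the replicate number as a block besides (0.42, limma adjusted p = 0.252). Across 483 bases the exons of Psip1 overlap those of Snapc3 on the other strand, and the strand setting of the counting is not given in the sources used here. Snapc3 had 36 to 47 counts per library against 109 to 275 for Psip1, and its groups differed by 0.00081 on the log2 scale (limma adjusted p = 0.999).

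Men1 (chromosome 19, 6334979 to 6340891, plus strand), the gene of menin, was counted at 28.5, 37.7 and 32.5 CPM in BcorΔE9-10 and 39.3 and 44.6 CPM in BcorWT. Every BcorΔE9-10 value lay below both BcorWT values, with a gap of only 0.061 on the log2 scale. The log2 fold change was -0.37 (95% interval -0.72 to -0.03, limma adjusted p = 0.166), so this tether did not pass the threshold, and its estimate lay on the opposite side of 0 from that of Psip1.

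Wdr5 (chromosome 2, 27515157 to 27536535, plus strand), the core subunit, was counted at 150.3, 156.5 and 152 CPM in BcorΔE9-10 and 117.7 and 143.7 CPM in BcorWT. The groups did not overlap, and BcorWT library 2 came near the BcorΔE9-10 values. The difference was 0.23 on the log2 scale (95% interval -0.02 to 0.49, limma adjusted p = 0.243). It was 0.083 without BcorWT library 1 (limma adjusted p = 0.808) and 0.38 without BcorWT library 2 (limma adjusted p = 0.0958).

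**Figure D1:**
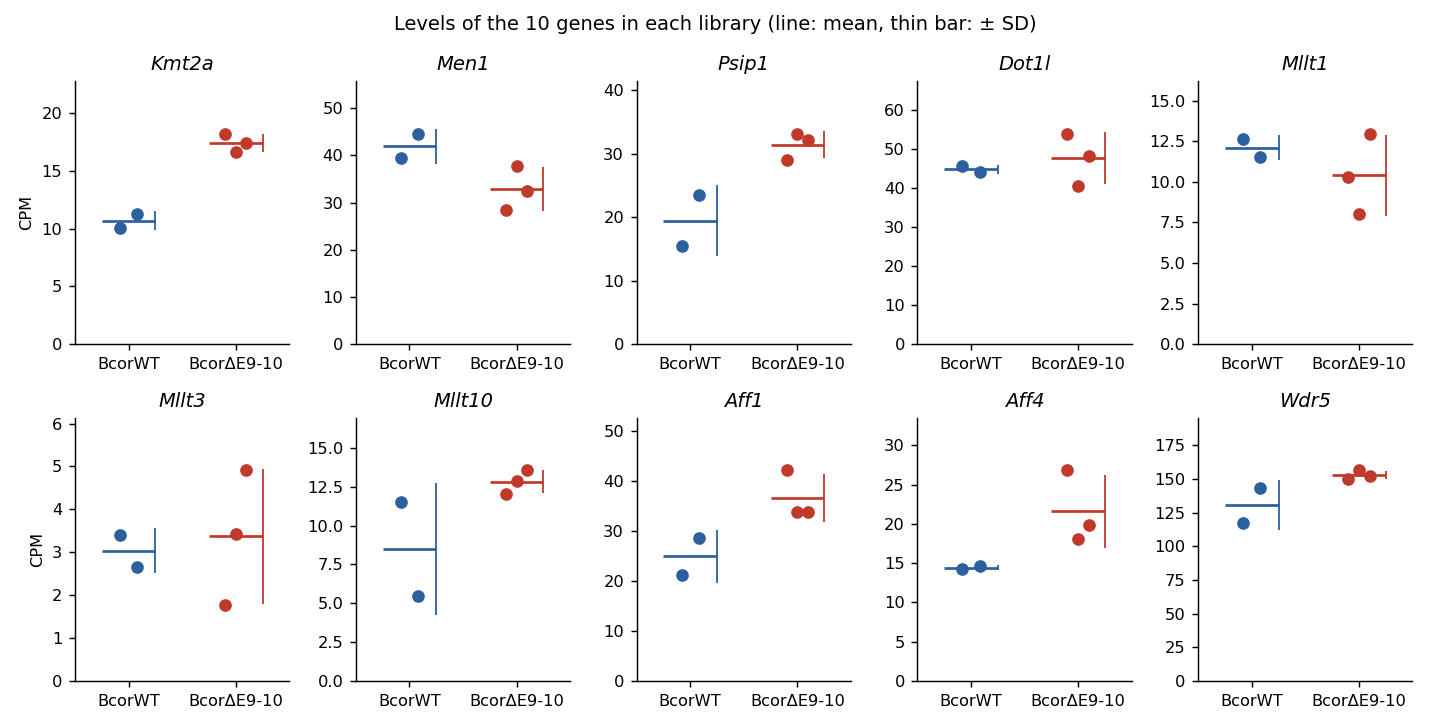
Level of each of the 10 genes in CPM (scaled counts per 1e+06, y axis from 0, a separate scale per gene) in the 2 BcorWT and 3 BcorΔE9-10 libraries, with 1 point per library, the mean as a horizontal line and ± 1 SD as a thin bar. All BcorΔE9-10 points lie above both BcorWT points for Kmt2a, Psip1, Mllt10, Aff1, Aff4 and Wdr5 and below them for Men1, while the groups overlap for Dot1l, Mllt1 and Mllt3.

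Dot1l (chromosome 10, 80755206 to 80795461, plus strand), the lysine 79 methyltransferase, was counted at 53.9, 40.6 and 48.3 CPM in BcorΔE9-10 and 45.6 and 44.0 CPM in BcorWT. The BcorWT values lay inside the BcorΔE9-10 range. The log2 fold change of 0.09 had a 95% interval from -0.24 to 0.42 (limma adjusted p = 0.766), and it became -0.0052 without BcorΔE9-10 library 1 and 0.19 without BcorΔE9-10 library 2.

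Mllt10 (chromosome 2, 18055237 to 18212388, plus strand), which encodes the Dot1l cofactor AF10, was counted at 12.1, 12.9 and 13.6 CPM in BcorΔE9-10 and 11.5 and 5.48 CPM in BcorWT. The groups were separate by 0.066 on the log2 scale, whereas the BcorWT libraries differed from each other by 1.06 on that scale. The log2 fold change of 0.67 (95% interval 0.05 to 1.3, limma adjusted p = 0.164) became 0.16 without BcorWT library 2 and 1.21 without BcorWT library 1. Its exons overlap those of Dnajc1 on the other strand across 749 bases, and the log2 fold change of Dnajc1 was -0.08 (limma adjusted p = 0.851).

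Of the YEATS readers, Mllt1 (chromosome 17, 56892612 to 56935388, minus strand) was counted at 10.3, 8.0 and 13 CPM in BcorΔE9-10 and 12.6 and 11.6 CPM in BcorWT. Its groups overlapped, and the log2 fold change was -0.21 (95% interval -0.75 to 0.32, limma adjusted p = 0.646). Without BcorΔE9-10 library 2 this became -0.068, and without BcorΔE9-10 library 3 it became -0.40. Mllt3 (chromosome 4, 87769925 to 88033364, minus strand) was counted at 1.77, 3.43 and 4.91 CPM in BcorΔE9-10 and 3.41 and 2.67 CPM in BcorWT, from 15 to 42 counts per library. The 2 BcorWT values fell within the BcorΔE9-10 range. The BcorΔE9-10 libraries spanned 1.44 on the log2 scale, and the 95% Poisson intervals of libraries 1 (0.992 to 2.92 CPM) and 3 (3.54 to 6.64 CPM) did not overlap. The groups differed by 0.023 on the log2 scale, with a 95% interval from -1.02 to 1.06 (limma adjusted p = 0.984).

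Aff1 (chromosome 5, 103692374 to 103855322, plus strand) was counted at 42.1, 33.8 and 33.8 CPM in BcorΔE9-10 and 21.2 and 28.6 CPM in BcorWT. The groups did not overlap, and BcorΔE9-10 library 1 was the highest. The log2 fold change was 0.57 (95% interval 0.17 to 0.97, limma adjusted p = 0.0637), and it passed the threshold in 3 of 10 other settings. It was 0.35 without BcorWT library 1 (limma adjusted p = 0.428) and 0.79 without BcorWT library 2 (limma adjusted p = 0.0336).

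Aff4 (chromosome 11, 53350833 to 53421830, plus strand), the paralog of Aff1, was counted at 26.8, 18.1 and 19.9 CPM in BcorΔE9-10 and 14.2 and 14.7 CPM in BcorWT. Again the groups did not overlap and BcorΔE9-10 library 1 stood highest. The log2 fold change was 0.58 (95% interval 0.10 to 1.05, limma adjusted p = 0.118). Only scaling by total counts alone brought it under the threshold among the 10 other settings (limma adjusted p = 0.0460).

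Over the set, 1 of the 10 genes was called higher and 0 lower by limma, against 6.02% and 4.09% of all genes tested. The edgeR quasi-likelihood test called 2 of the 10, against 11.2% of all genes, and DESeq2 called 1, against 10.9%. By limma, 6 of the 10 had an unadjusted p-value under 0.05, against 25.3% of all genes. This count was 4, 5 and 4 without BcorΔE9-10 library 1, 2 and 3. The groups did not overlap, with BcorΔE9-10 higher, for 6 of the 10 and, with BcorΔE9-10 lower, for 1, against 22.6% and 20.3% of all genes. The log2 fold change was above 0 for 8 of the 10, against 50.4% of all genes, and its median over the 10 was 0.40 against 0.0043 over all genes tested. Under scaling by total counts alone these medians were 0.55 and 0.15. The summed level of the 10 genes was 360.8 to 372.9 CPM in BcorΔE9-10 and 291.1 and 330 CPM in BcorWT. The genes were chosen with results of these data known, and no test was made over them.

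In KL cells fewer cells of a type and less RNA per cell cannot be told apart, and markers of other cell types moved between the groups. Over all genes tested 4.09% were called lower and 6.02% higher. Of 10 maturing neutrophil markers 6 fell and 4 were not called, Camp among them with an estimate above 0 (0.25, limma adjusted p = 0.114). The summed level of the 10 was 148000 to 172000 CPM in BcorΔE9-10 and 214100 to 226500 CPM in BcorWT. S100a8 alone had 68130 to 80560 CPM in BcorΔE9-10 and 117200 and 109900 CPM in BcorWT. Of 8 basophil, mast cell and eosinophil markers 7 were tested and 5 fell (392.8 to 565.1 CPM against 980.3 to 1272 CPM summed). Of 10 erythroid markers 5 were tested and 1, Car1, rose (57.7 to 240.3 CPM against 19.5 to 59.9 CPM summed). Of 10 myeloid progenitor markers Kit and Myb rose, while the summed level overlapped (7372 to 8661 CPM against 7825 to 8654 CPM). No called gene was found among 5 of 7 megakaryocyte markers tested (43.9 to 70.0 CPM against 26.7 to 45.7 CPM summed), 6 of 10 lymphoid markers (17.4 to 31.2 CPM against 8.59 to 19.3 CPM) or 2 of 6 stem cell markers (13.7 to 16.5 CPM against 10.9 to 11.7 CPM). Of 8 genes that respond to cell handling 7 were tested, Fos rose, Hspa1a, Hspa1b and Hsp90aa1 fell, and the summed level was 2129 to 2252 CPM against 2122 to 3405 CPM. No marker of these lists was at 0 in every library. The part of these shifts in the levels of the 10 genes was not tested.

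The fold changes also moved with the base composition of transcript ends. GC content of the last 300 bases was under 40% for Kmt2a (33.0%), Psip1 (30.7%), Mllt3 (34.7%), Mllt10 (21%), Aff1 (39.0%) and Aff4 (34.3%). It was 45% or more for Men1 (48.7%), Dot1l (49.0%), Mllt1 (47.3%) and Wdr5 (47.0%). Over all genes tested the median log2 fold change was 0.17 for the 4260 genes under 40% and -0.10 for the 5017 genes at 45% or more. Of the 6 genes under 40%, 5 had log2 fold changes from 0.57 to 0.72, above the median of that range, and Mllt3 lay below it.

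When the GC trend of each library was removed, 0 of the 10 genes passed the limma threshold, against 8.44% of all genes in that fit, and 4 had an unadjusted p-value under 0.05, against 23.3%. With the replicate number as a block besides, 1 of the 10 was called, against 1240 of 11759 genes in that fit. This was Aff1 (0.60, limma adjusted p = 0.0358), not Psip1. BcorΔE9-10 library 3 has no BcorWT library of its number, so in fits with this block it does not enter the group difference. With the GC trend removed and no block, Psip1 moved to 0.44 (95% interval 0.03 to 0.85, limma adjusted p = 0.180) and Kmt2a to 0.51 (0.04 to 0.98, limma adjusted p = 0.177). In that same fit Aff1 stayed at 0.54 (limma adjusted p = 0.0802), Wdr5 moved up to 0.33 and Mllt10 down to 0.14. The estimate of Men1 became -0.25 and that of Mllt3 turned to -0.13. The median over the 10 genes was 0.27 after removal, against 0.018 over all genes.

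**Figure D2:**
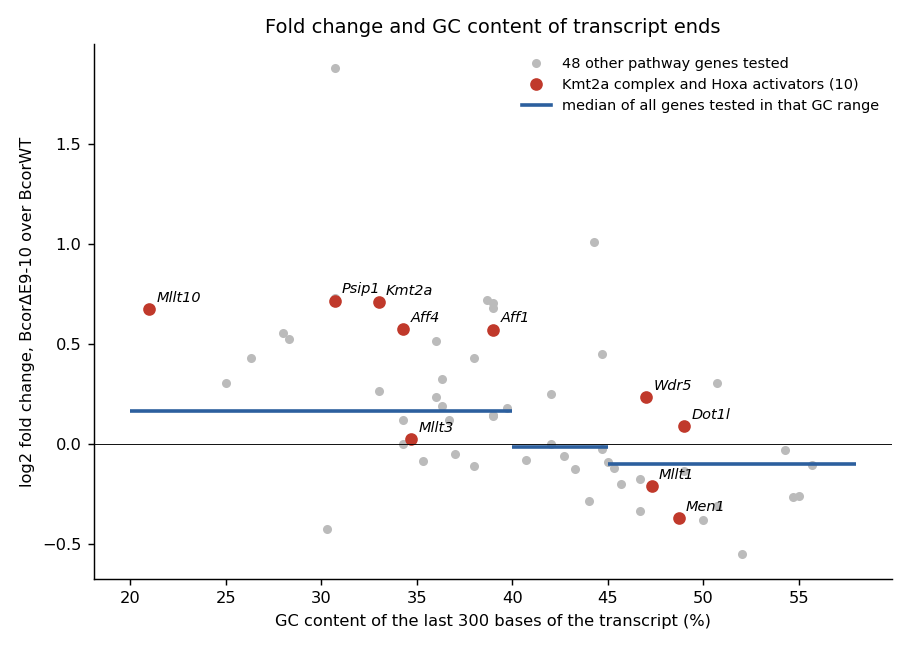
Log2 fold change of BcorΔE9-10 over BcorWT (y axis) against the GC content in percent of the last 300 transcript bases (x axis) for the 10 genes (red), 48 other pathway genes (grey) and, as blue lines, the median of all genes tested under 40%, from 40% to 45% and at 45% or more. Psip1, Kmt2a, Mllt10, Aff4 and Aff1 lie above the blue line under 40% and Mllt3 below it, while at 45% or more Wdr5 and Dot1l lie above the line and Mllt1 and Men1 below it.

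**Figure D3:**
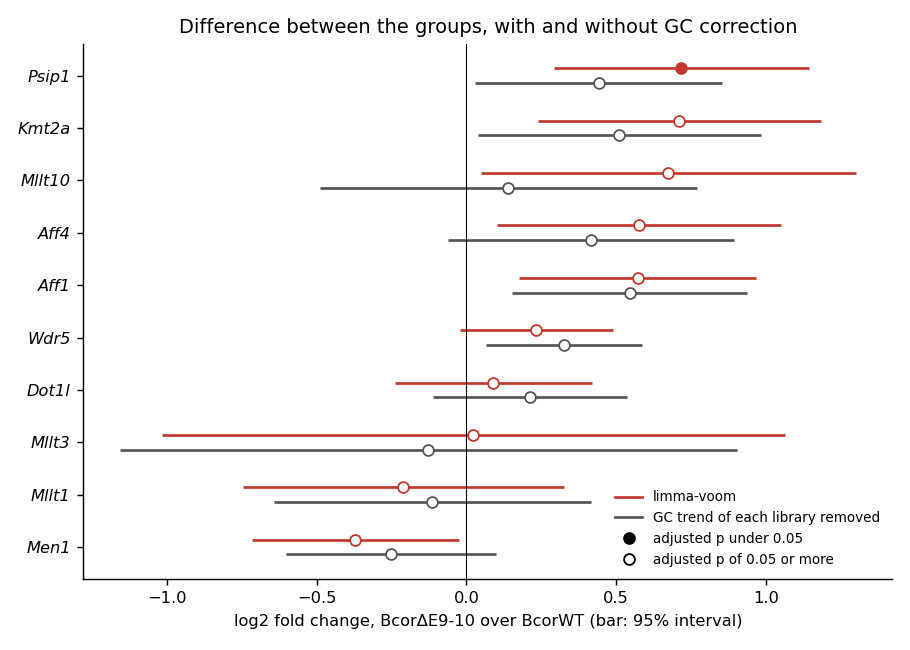
Log2 fold change (points) with its 95% interval (bars) for each of the 10 genes by limma-voom as counted (red) and after the GC trend of each library was removed (grey), with filled points where the adjusted p is under 0.05. Psip1 alone is filled, at 0.72 as counted, and no point is filled after removal.

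Of the other genes of these pathways, 54 were listed and 48 passed the filter on low counts. Among them 2 rose and 0 fell by limma, against 6.02% and 4.09% of all genes tested. Of their estimates 24 lay above 0 and 24 below, and the median log2 fold change was 0.06. In the H3K4 methyltransferase complexes 1 of 16 genes tested rose, and in P-TEFb and the super elongation complex 1 of 11. None of 6 PAF complex genes (median -0.07), 11 YEATS, HBO1 and MOZ genes (median 0.30) and 4 H3K4 demethylase genes (median 0.07) was called in either direction. With the replicate number as a block, Paf1 of the PAF complex was lower (-0.68, limma adjusted p = 0.0318), against -0.55 (limma adjusted p = 0.140) without it. This was the only call of Paf1 in 10 other settings, and its estimate was -0.40 with the GC trend removed (limma adjusted p = 0.315) and ranged from -0.73 to -0.27 with a library left out, the last without BcorΔE9-10 library 1. Pagr1a and Ell3 had no count in any library, and Aff2, Eaf2, Hexim2 and Ing4 were not tested. Pagr1a, Ell3 and Ing4 overlap other genes on their own strand and share 93.7%, 81.9% and 100% of the 30-base words of their ends with other genes, and the part of this sharing in their counts was not tested.

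Eaf1 (chromosome 14, 31495079 to 31509858, plus strand), whose product associates with ELL elongation factors in the complexes built on Aff1 and Aff4, was counted at 20.1, 21.5 and 23.3 CPM in BcorΔE9-10 and 5.11 and 6.67 CPM in BcorWT. The lowest BcorΔE9-10 library was far above the highest BcorWT library. The rise of 1.88 on the log2 scale (95% interval 1.29 to 2.46, limma adjusted p = 0.000487) passed the threshold in 10 of 10 other settings and in 5 of 5 fits that left out a library. Its transcript end had a GC content of 30.7%, and after removal of the GC trend the log2 fold change was 1.60 (limma adjusted p = 0.00158).

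Paxip1 (chromosome 5, 27740080 to 27791691, minus strand), which encodes the PTIP subunit of the KMT2C and KMT2D complexes and not of the Kmt2a complex, was counted at 33.5, 36.1 and 41.5 CPM in BcorΔE9-10 and 19.9 and 25.8 CPM in BcorWT. The groups did not overlap, and the rise was 0.71 on the log2 scale (95% interval 0.31 to 1.1, limma adjusted p = 0.0227). The call was lost without BcorWT library 1 (log2 fold change 0.51, limma adjusted p = 0.214) and without BcorΔE9-10 library 3 (0.60, 0.0965). It held in 9 of 10 other settings and was lost with the GC trend removed and the replicate number as a block (0.59, limma adjusted p = 0.0504).

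**Figure D4:**
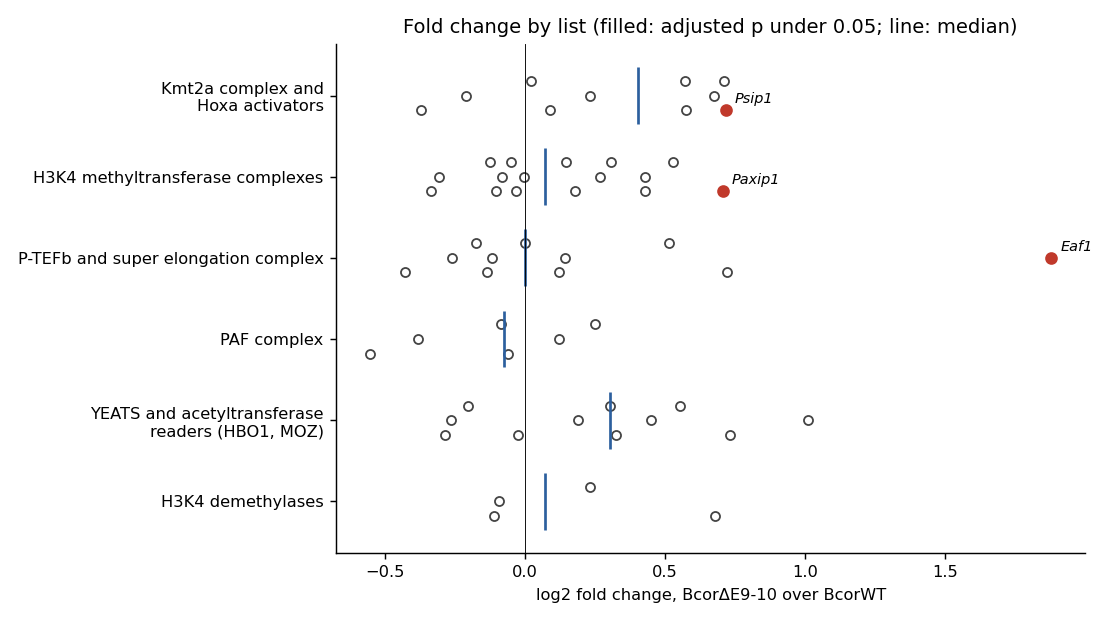
Log2 fold change of BcorΔE9-10 over BcorWT (x axis) for every tested gene of the 10-gene set and of the 5 other pathway lists (rows), with 1 circle per gene, filled where the limma adjusted p is under 0.05, and a blue line at the median of each list. The filled circles are Psip1, Paxip1 and Eaf1, and the median is 0.40 for the 10 genes and lies between -0.07 and 0.30 in the other lists.

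**Figure D5:**
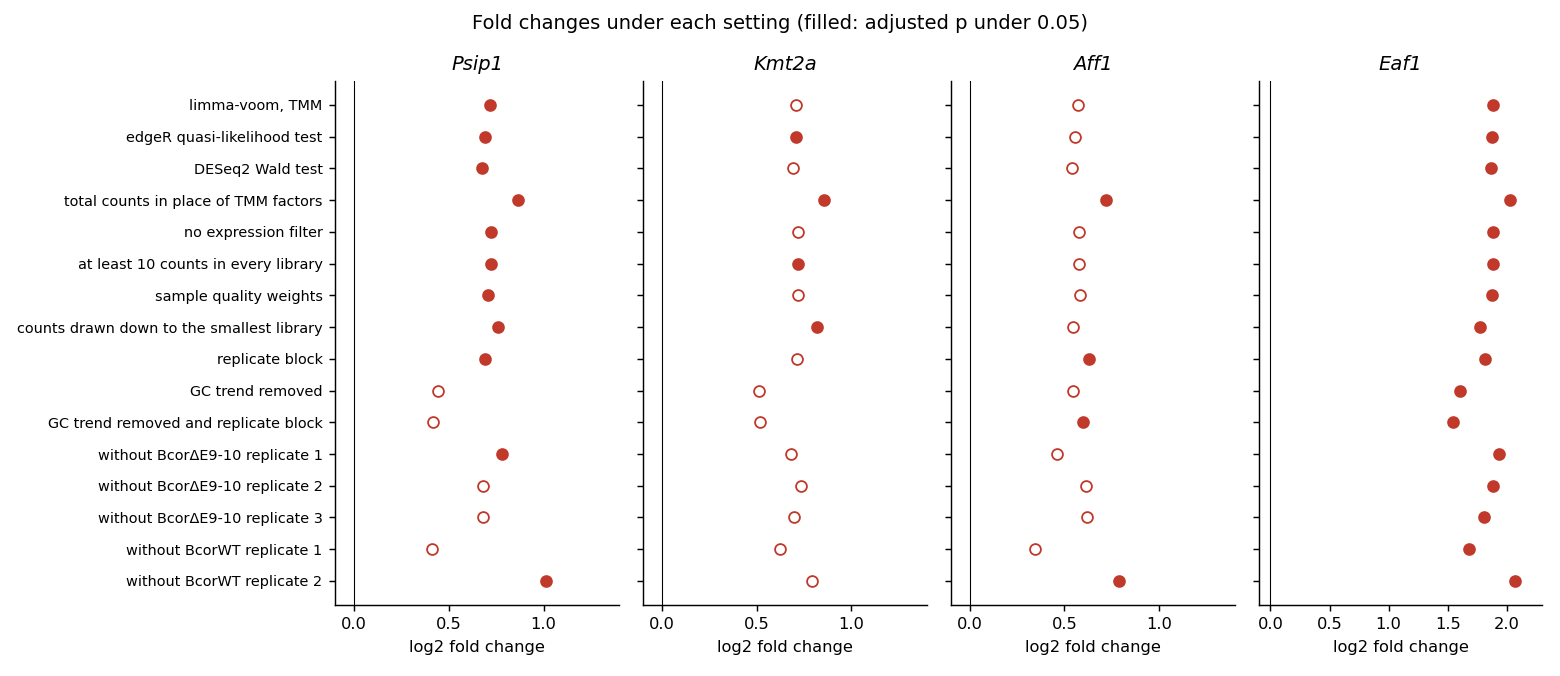
Log2 fold change (x axis) of Psip1, Kmt2a, Aff1 and Eaf1 under limma-voom, 10 other settings and 5 fits that each left out a library (rows), with filled points where the adjusted p is under 0.05. Eaf1 is filled in every row, Psip1 in 8 of the 10 other settings and 2 of the 5 fits that left out a library, Kmt2a in 4 and 0, and Aff1 in 3 and 1.

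Ratios between paralogs in the same library need no scaling between libraries. The log2 ratio of Kmt2a to Kmt2b counts was 0.72, 0.44 and 0.14 in BcorΔE9-10 and -0.59 and -0.02 in BcorWT. All BcorΔE9-10 ratios were higher, with a difference in means of 0.74 (two-sided exact permutation test, p = 0.1, adjusted p = 0.3 over 3 pairs). With 3 against 2 libraries 0.1 is the smallest p that this test can give. After removal of the GC trend the difference was 0.36 (exact permutation p = 0.4), and it was 0.45 without BcorWT library 1 and 1.02 without BcorWT library 2. Kmt2b itself, the closest paralog of Kmt2a, had an estimate of -0.03 on the log2 scale (95% interval -0.55 to 0.48, limma adjusted p = 0.954), and leaving out BcorWT library 1 or 2 gave 0.17 or -0.23.

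The log2 ratio of Mllt3 to Mllt1 differed between the groups by 0.28 (exact permutation p = 0.6) and that of Aff1 to Aff4 by 0.003 (exact permutation p = 1). The Mllt3 to Mllt1 difference was 0.68 without BcorΔE9-10 library 1, 0.033 without library 2 and 0.13 without library 3 of that group, 0.17 without BcorWT library 2, and 0.031 with the GC trend removed. For both pairs the ratios of the groups overlapped. Aff1 to Aff4 was 0.65, 0.90 and 0.76 in BcorΔE9-10 and 0.57 and 0.96 in BcorWT, and Mllt3 to Mllt1 was -2.50, -1.20 and -1.39 against -1.87 and -2.09.

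The genes that these proteins are known to sustain were read from the same fit. Hoxa9 was counted at 28.3, 20.9 and 32.8 CPM in BcorΔE9-10 and 2.27 and 2.22 CPM in BcorWT (log2 fold change 3.56, limma adjusted p = 0.000192), and Hoxa7 and Hoxa5 rose by 1.89 (limma adjusted p = 0.00658) and 2.87 (limma adjusted p = 0.0399). Meis1 was counted at 4.96, 3.10 and 6.08 CPM against 3.12 and 2.96 CPM, and its difference of 0.62 did not pass the threshold (limma adjusted p = 0.386). Within BcorΔE9-10, library 2 had the lowest values of Hoxa9, Hoxa7 (10.9 CPM) and Meis1 but not of Hoxa5 (3.92 CPM, against 3.78 CPM in library 1). It also had the lowest values of Kmt2a (16.6 CPM), Aff4 (18.1 CPM), Dot1l (40.6 CPM) and Mllt1 (8.0 CPM), but the highest of Psip1 (33.1 CPM), Men1 (37.7 CPM) and Wdr5 (156.5 CPM). The study singles out Hoxa7 and Hoxa9 from these libraries, so their rise is not independent evidence of a direction. Hoxa10 was not tested, with 0 to 4 counts per library.

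Genes with a pattern most like that of Kmt2a over the 5 libraries were Actr2, Bcas2 and Rbm17, with root mean square differences in centred log2 CPM of 0.075, 0.083 and 0.083 among 3270 genes compared. For Psip1 they were Elk4, Capza1 and Atad1, with 0.067, 0.069 and 0.070. These 6 genes had log2 fold changes from 0.63 to 0.80. All 5 libraries entered this measure, so it includes the difference between the groups.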

How the data were processed

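KL cells were profiled in 3 BcorΔE9-10 and 2 BcorWT libraries with a QuantSeq 3′ kit. The authors sequenced single-end reads, demultiplexed them with bcl2fastq (2.17.1.14), trimmed them with cutadapt, aligned them to mm10 with HISAT2 and counted them per gene with featureCounts (Subread 1.5.0-p3, per the submitters' processing notes). The authors deposited these raw counts without normalisation. The strand and multimapping options are not given in the sources used here. No member shared a 30-base word of its last 300 bases with another gene.

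Genes were kept with filterByExpr of edgeR (4.0.16; minimum count 10, minimum total count 15), scaled by TMM factors and tested with limma (3.58.1) on voom values in R (4.3.3), two-sided, with the adjustment of Benjamini and Hochberg across every tested gene and a threshold of 0.05. CPM are counts per 1e+06 TMM-scaled counts. Paralog ratios had 0.5 added to each count. Gene coordinates (mm10) were those given with the deposited counts, and transcript ends came from GENCODE transcripts. The GC trend was a lowess fit (span 0.3) per library, known for 11759 genes. Intervals of single counts are 95% Poisson intervals. The limma, edgeR and DESeq2 fits, the replicate block and the GC correction were run on simulated counts, and the other steps were not.

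Named genes were the 10 members, each called gene of the pathway lists, Bcor, Hoxa5, Hoxa7, Hoxa9, Hoxa10 and Meis1, and for Kmt2a and Psip1 the 3 genes with mean log2 CPM of at least 5 and the smallest root mean square difference. Kmt2b was named as a paralog. Also named, outside this rule, were genes overlapping a member, list genes left untested, markers, and Paf1, which was chosen after its values were seen. The members and lists were chosen with earlier results of these data known. Alternatives covered the test (edgeR quasi-likelihood, DESeq2 1.42.0), scaling, filter, sample weights, depth, GC content, each library left out and a replicate block.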

Additional observations from a re-analysis of the deposited data

How the results depend on the processing

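Of 100 comparisons of the 10 genes with other settings, 85 kept direction and side of the threshold, 2 lost the call, 8 gained it and 5 turned direction. Of 50 with a library left out, the counts were 42, 3, 1 and 4. The call count of the 10 genes, 1 by limma, was 2 with edgeR, with at least 10 counts in every library, with all libraries drawn down to the smallest total and with the replicate block, 4 with total counts, 0 with the GC trend removed, and 1 with that and the replicate block, where it was Aff1 and not Psip1. It ranged from 0 to 2 with a library left out. Their median log2 fold change of 0.40 became 0.55 with total counts and 0.27 with the GC trend removed, alone or with the replicate block, and ranged from 0.27 to 0.43 with a library left out. Pathway calls went from 2 to 5 with total counts, 3 with the replicate block, where Paf1 was lower (-0.68, limma adjusted p = 0.0318), and 1 with the GC trend removed and the replicate block, and ranged from 1 to 3 with a library left out. Calls over all genes, 1189, ranged from 558 to 1200 with a library left out. Mllt3 turned to -0.085 with counts drawn down, -0.28 with the replicate block, -0.13 with the GC trend removed and -0.43 with both, and ranged from -0.37 to 0.47 with a library left out. Mllt10 turned to -0.017 with the GC trend removed and the replicate block, and Dot1l ranged from -0.0052 to 0.19 with a library left out. The Aff1 to Aff4 difference turned to -0.045 with counts drawn down and ranged from -0.19 to 0.20 with a library left out, that of Kmt2a to Kmt2b from 0.45 to 1.02 and that of Mllt3 to Mllt1 from 0.033 to 0.68. The cause of these changes was not tested. Libraries of equal number shared only that number (correlations of their deviations 0.057 and 0.067), and under the replicate block Aff1, of the 10 genes, was added to Psip1 as a call (limma adjusted p = 0.0239). Only BcorΔE9-10 had a library 3, so in fits with this block that library did not enter the group difference. A fit with 1 BcorWT library assumes that it varies like the BcorΔE9-10 libraries. Mllt3 had 15 to 42 counts per library.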
